A study of Mus musculus with 12 samples.

Results

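The genes of oxidative phosphorylation were followed by complex in whole forestomach of adult C57BL/6J mice. Members were all genes whose name on the array began with Nduf, Uqcr or Atp5, the Sdh genes a to d, and the Cox genes numbered 4 to 8. The rule found 89 of 28146 gene names, carried by 126 of 41174 probes. Complex I had 41 of them, complex II 4, complex III 8, complex IV 19 and complex V 17. The probe with the highest signal stood for its gene. To be tested, a probe needed a forestomach signal flagged as well above background on 3 or more of the 4 arrays in the control or the 4-week group, and 87 members passed. Cox7b2 and Cox8c, isoforms known from testis, were not well above background on any of the 8 arrays with scanner files and were left out of the tests. Cox4nb, Atp5s and Atp5sl match the rule by name but are not subunits; their current symbols are Emc8, Dmac2l and Dmac2. Ndufaf1, Ndufaf2, Ndufaf3 and Ndufaf4 are assembly factors of complex I and were counted with it.

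The study asked whether drinking alcohol alters gene expression in the forestomach, the keratinized first chamber of the mouse stomach. Control mice drank supersaccharin without alcohol, a 4-week group drank 20% alcohol in supersaccharin, and a 40-week group was given 15% alcohol; there were 4 samples in each group. Dose, duration, cohort and drinking solution changed together between the alcohol groups, and no untreated group of the 40-week age was analysed here. Forestomach RNA carried the red dye Cy5 and was hybridised on 2-colour arrays against a universal mouse reference RNA that carried the green dye Cy3, with no dye swap. The values below are log2 ratios of forestomach over reference, so each unit is a factor of 2, and a ratio compares a gene with the reference and not with another gene. Control and 4-week arrays had scanner files; the 40-week arrays had values only in the deposited table. Whether the samples of a group came from separate mice is not stated, so the p-values reflect only how these samples spread, which may be technical.

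Oxidative phosphorylation makes most of the ATP of resting cells. Complex I takes electrons from NADH and complex II from succinate, complex III passes them through cytochrome c to complex IV, which reduces oxygen, and complex V uses the resulting proton gradient to make ATP. The subunits listed here are encoded in the nucleus, whereas a small core of each complex except complex II is encoded in mitochondrial DNA. Complex IV has tissue-specific isoforms in heart, skeletal muscle, brown fat, lung and testis.

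The arrays set limits that touch every result. Control and 4-week arrays lay on separate slides with separate scan times, so slide and treatment cannot be told apart. The columns of the 40-week arrays had an SD of 1.02 to 1.08 over all probes, against 1.48 to 1.73 for the other 8. Markers of squamous epithelium, the labelled tissue, were high everywhere, with median ratios of 3.17 to 4.58 in control and 4-week arrays and 2.27 to 2.94 at 40 weeks. Markers of gastric glands, which a forestomach does not have, had a median ratio of 4.92 in control replicate 4 and 3.77 in 4-week replicate 2, against 0.36 to 1.66 on the other 10 arrays. Pancreatic acinar markers had a median of 6.34 in control replicate 3 and 2.60 in 4-week replicate 2. The 40-week replicates 3 and 4 were low in Y-linked Ddx3y, at -4.26 and -4.02 against 0.49 to 1.49 elsewhere. Y-linked Eif2s3y was -5.67 and -6.28 on them against 2.61 to 3.17 elsewhere, and Kdm5d and Uty were also low. Xist was 0.63 and 0.11 on them against -2.25 to -0.82 elsewhere. No control or 4-week array had this pattern.

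Most members were close to the reference. The median ratio of the 87 members on the value table was 0.39 ± 0.20 in control (SD, n = 4), 0.27 ± 0.13 at 4 weeks (SD, n = 4) and 0.19 ± 0.02 at 40 weeks (SD, n = 4), while the median of all 20689 genes was 0.16, 0.13 and 0.11. The 4 control arrays had member medians of 0.19, 0.31, 0.39 and 0.66, the 4-week arrays 0.20, 0.47, 0.19 and 0.22, and the 40-week arrays 0.20, 0.18, 0.17 and 0.20. Control replicate 4 and 4-week replicate 2 were the highest of their groups, and the groups overlapped. Complex III was the highest complex in the mean of the control arrays, 0.60 ± 0.27 (SD, n = 4), and complex II the lowest, 0.09 ± 0.36 (SD, n = 4).

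**Figure D1:**
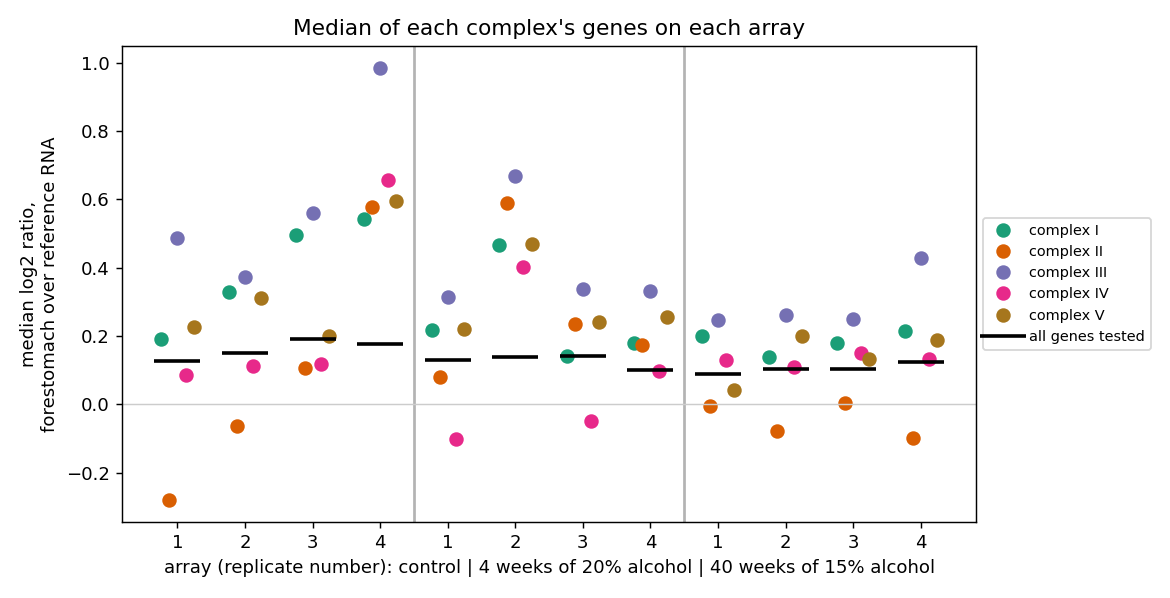
Median log2 ratio of forestomach over reference RNA for the genes of each complex (coloured points) and for all genes tested (black bars) on each of the 12 arrays, by group and replicate number. Complexes stood together above their group on control replicate 4, where complex III reached 0.99, and on 4-week replicate 2, where it reached 0.67.

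The members stood high together on those 2 arrays. Among the control arrays, replicate 4 held the highest value of 54 of 87 members (62.1%), against 24.7% of all genes. Among the 4-week arrays, replicate 2 held the highest value of 67 of 87 members (77%), again against 24.7% of all genes. In the forestomach channel alone the counts were 53 and 53 of 87, and in the reference channel 14 and 16, so the difference lay mainly in the forestomach channel. On control replicate 4 the members were a median of 0.26 above the mean of the other 3 controls, and on 4-week replicate 2 a median of 0.27 above the others. Above-average values were found for 71 members on the first array and 79 on the second, and for 66 on both. Parietal cells of gastric glands are known for their many mitochondria. The 16 gastric gland markers tested, of 19 on the array, summed to a Cy5 signal of 1597000 on control replicate 4 and 1950000 on 4-week replicate 2, against 3159 to 25480 on the other controls and 1243 to 5969 on the other 4-week arrays. The proton pump genes Atp4a and Atp4b, which define parietal cells, had ratios of 5.06 and 5.40 on control replicate 4 and 3.1 and 4.04 on 4-week replicate 2. On the other 10 arrays Atp4a lay between -0.04 and 1.42 and Atp4b between 0.48 and 3.20. Their part in the members' values was not tested. As these are bulk samples, fewer cells of a type and less RNA per cell cannot be told apart.

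Cox7a1 showed this most. It encodes the isoform of subunit VIIa known from heart, skeletal muscle and brown fat, and its probe lies on chromosome 7 from 30970337 to 30970948 (mouse build NCBI37, as the array annotation gives it). Its ratios were -0.36, -0.52, -0.63 and 2.77 in the controls, -0.74, 2.83, -1.18 and -0.96 at 4 weeks, and -0.78, -0.98, -0.16 and -0.64 at 40 weeks. Control replicate 4 and 4-week replicate 2 stood more than 3 units above the mean of their groups' other arrays (3.27 and 3.79), and the other 10 values were all below 0. The median of the striated muscle markers was -0.12 and -0.55 on these arrays, and -0.56 to 0.55 on the other 10. That of the brown fat markers was 2.51 and 2.20, and 2.05 to 3.31 on the other 10. The source of the Cox7a1 values was not tested. On control replicate 4, Cox4i1, the common isoform of subunit IV, was 0.85 above the other controls, and Cox7c, a small subunit of complex IV, differed from them by -1.06. On 4-week replicate 2, Cox8b was 1.16 and Sdhd 1.01 above the other 3 arrays.

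After 4 weeks of 20% alcohol no member passed the test. The comparison used the scanner ratios and limma's moderated test over 20689 genes, with Benjamini-Hochberg adjusted p under 0.05 as the call. Of all genes, 0.266% were called higher and 0.807% lower. Of the members, 36 of 87 had a higher mean and 51 a lower mean than control, and the balance turned on single arrays: it was 47 higher and 40 lower without control replicate 4, and 24 higher and 63 lower without 4-week replicate 2. At an unadjusted p under 0.05 there were 4 higher and 10 lower members, and the smallest adjusted p was 0.111, for Ndufb2. Shares of all genes at that unadjusted cut are not given, here or below, so these counts are not read against a background. The median change was -0.05 for the members and -0.02 for all genes. The members' median was 0.02 without control replicate 4, -0.12 without control replicate 1, -0.16 without 4-week replicate 2, and -0.01 and -0.03 without 4-week replicates 3 and 4. By complex the median was -0.06 for complex I, 0.20 for complex II, -0.15 for complex III, -0.03 for complex IV and -0.06 for complex V. Groups did not overlap for 3 higher members (Atp5d, Ndufab1 and Uqcrc1) and 4 lower members (Atp5l, Atp5s, Ndufb2 and Uqcrh), or 3.45% and 4.6%, where 5.52% and 6.33% of all genes had this separation.

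The largest difference in each complex at 4 weeks was as follows. Ndufa4, named as a complex I subunit and since counted with complex IV, had scanner ratios of 2.65, 2.47, 2.26 and 1.90 in control and 1.99, 1.61, 1.52 and 1.66 at 4 weeks. The lowest control lay below the highest 4-week sample, and the difference was -0.63 ± 0.18 (SE) with a limma adjusted p of 0.13. Cox6a1, the common isoform of subunit VIa, had 0.97, 1.23, 1.30 and 1.70 in control and 0.79, 1.09, 0.36 and 0.26 at 4 weeks, with some overlap. Its difference was -0.68 ± 0.22 (SE; limma adjusted p = 0.167). Atp5e, the epsilon subunit of complex V, differed by -0.58 ± 0.18 (SE; limma adjusted p = 0.149). Uqcrh, the hinge protein of complex III, had 1.48, 1.09, 1.06 and 1.11 in control and 0.99, 0.88, 0.46 and 0.44 at 4 weeks. Every control lay above every 4-week sample, with a difference of -0.49 ± 0.17 (SE; limma adjusted p = 0.18). In complex II the largest difference was that of Sdhc, a membrane anchor, at 0.30 ± 0.22 (SE; limma adjusted p = 0.527).

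The reading of the members at 4 weeks depended on how the arrays were normalized. With loess, which removes dye bias along signal intensity, 51 of 87 members were lower. With each array only centred on its median, 84 of 87 were lower, with a median of -0.47 against -0.11 for all genes, and no member was called. Members were bright: their median background-subtracted Cy5 signal ranged from 13900 to 57100 per array, where the median of all probes was 40.1 to 142.

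The 2 channels were also compared apart, because the reference RNA should be alike on every array. In Cy5 alone no member was called, 12 had an unadjusted p under 0.05, and the median difference was -0.08, or 0.0061 without control replicate 4; of all genes 0.232% were called higher and 0.0532% lower. In Cy3 alone 2 members were called higher in the 4-week arrays, Cox7a2 by 0.35 ± 0.06 (SE; limma adjusted p = 0.00745) and Ndufa4 by 0.26 ± 0.06 (SE; limma adjusted p = 0.0376), where 6.04% of all genes were called higher and 2.67% lower. The Ndufa4 call in Cy3 was lost under 9 of 10 alternatives. Cox7a2 encodes the common isoform of subunit VIIa. Ndufa4 differed by -0.38 ± 0.20 (SE) in Cy5, so part of its lower ratio at 4 weeks lay in the reference channel. Cox6a1 had -0.46 in Cy5 and 0.30 in Cy3, and Atp5e -0.45 and 0.18. Atp5l, subunit g of complex V, had -0.54 in Cy5 and -0.08 in Cy3, so its difference lay in the forestomach channel. Cox7c was the highest in both channels, at 0.93 and 0.47, with limma adjusted p of 0.267 and 0.102.

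**Figure D2:**
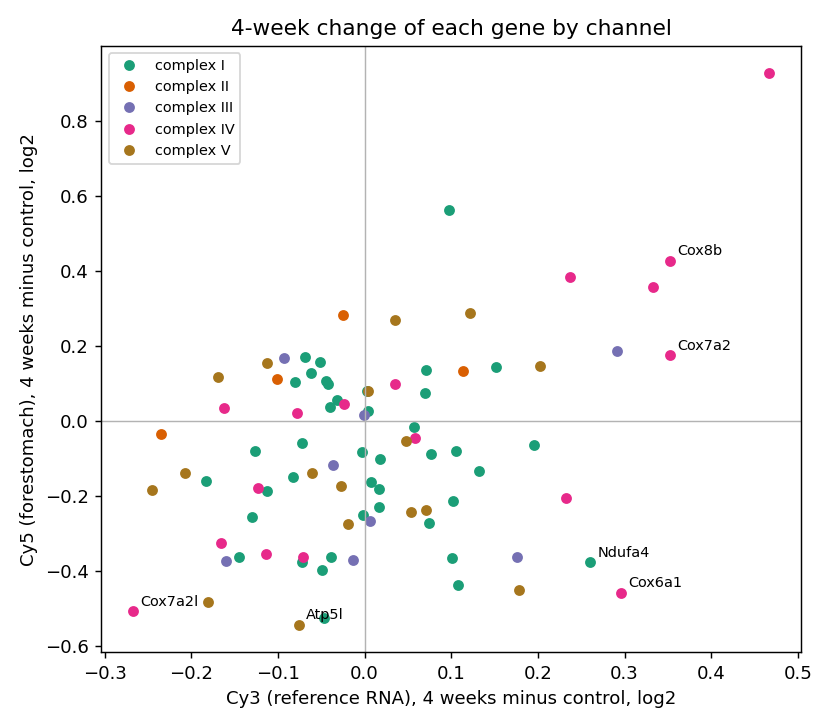
Difference between 4-week and control arrays in log2 signal for each of the 87 members, in the reference channel Cy3 (horizontal) and in the forestomach channel Cy5 (vertical), coloured by complex. Cox7a2 (0.35) and Ndufa4 (0.26) were the 2 members called in Cy3, while Atp5l lay near 0 in Cy3 and at -0.54 in Cy5.

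The same 4-week comparison on the deposited value table, with all 12 arrays in the fit, called 6 members lower and none higher. They were Ndufb2 (-0.48 ± 0.11 SE), Ndufa1 (-0.55 ± 0.13 SE) and Ndufa4 (-0.70 ± 0.17 SE) of the complex I names, Uqcrh (-0.61 ± 0.16 SE), Cox6a1 (-0.82 ± 0.21 SE) and Atp5e (-0.67 ± 0.17 SE), with limma adjusted p from 0.0296 to 0.045. Of all genes 2.35% were called higher and 3.67% lower. Fitted on the same 8 arrays alone, the table gave 0 calls among the members and 15 at an unadjusted p under 0.05, so the 6 calls depended on having the 40-week arrays in the fit. Leaving out any single array gave 0 to 6 calls: none without 4-week replicate 3 or 4, 5 without control replicate 3, 6 without 4-week replicate 2, and 1 to 3 without any other array.

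After 40 weeks of 15% alcohol 2 members were called higher and 19 lower than control on the value table, out of 87. Among all genes 18.6% were called higher and 24% lower, so the members' 2.30% and 21.8% lay below and near that background. Complex I had 10, namely Ndufa1, Ndufa4, Ndufa9, Ndufb2, Ndufb4, Ndufb5, Ndufb6, Ndufc1, Ndufs5 and Ndufv2; complex III had Uqcrfs1 and Uqcrh; complex IV had Cox6a1, Cox6b2 and Cox7a2; complex V had Atp5g3, Atp5j, Atp5j2 and Atp5l. Complex II had none. The higher genes were Cox6a2 and Ndufv1. In all, 62 of 87 members had a lower mean, with a median of -0.18 against -0.09 for all genes. Without control replicate 4 the median was -0.11 with 53 lower, and without control replicates 3 and 4 and 4-week replicate 2 it was -0.06 with 50 lower, against -0.05 for all genes. By complex the median was -0.10 for complex I, -0.09 for complex II, -0.27 for complex III, -0.29 for complex IV and -0.18 for complex V. Groups did not overlap for 2 higher and 26 lower members (2.30% and 29.9%), against 18.5% and 23.9% of all genes.

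**Figure D3:**
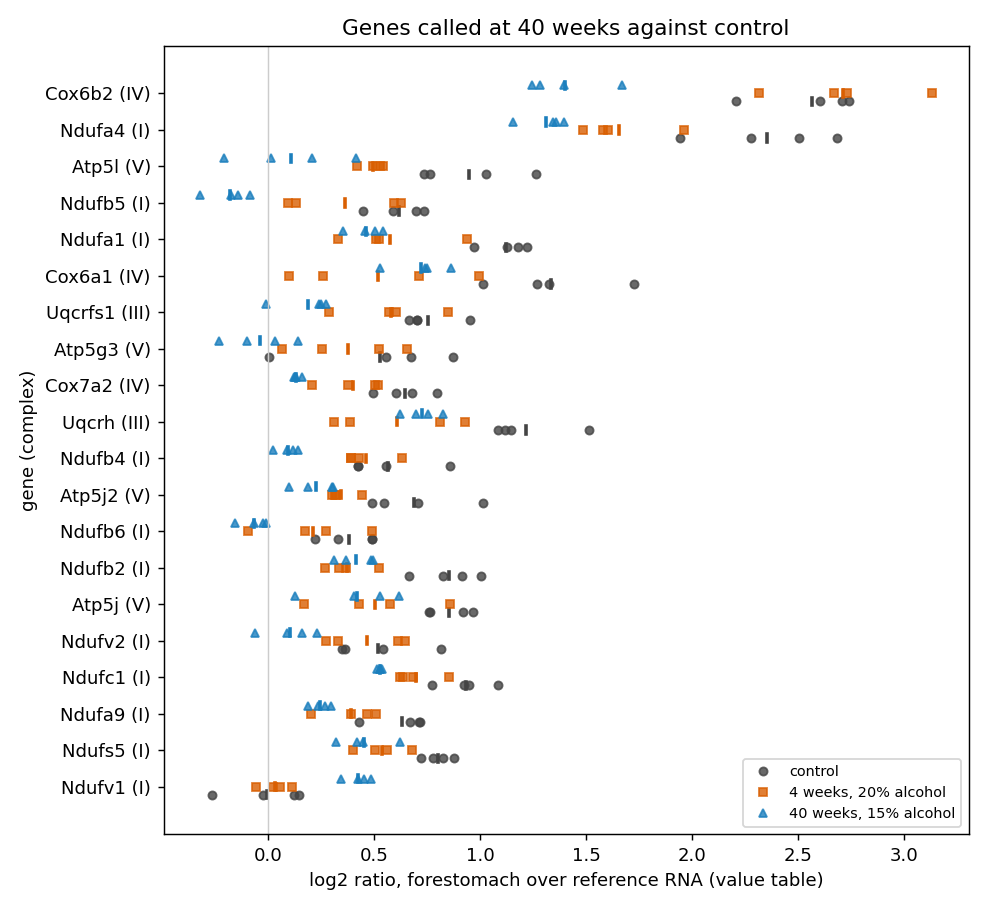
Log2 ratios on each array for 20 of the 21 members called at 40 weeks against control (Cox6a2, near -4 to -3, is off this scale), with the mean of each group as a short bar. For 18 of the 19 lower genes every 40-week sample lay below every control, the exception being Atp5g3, while for Ndufv1 every 40-week sample lay above.

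Ndufa4 was the largest difference of complex I. Its probe lies on chromosome 6 from 11850423 to 11850482 (NCBI37). Ratios on the table were 2.68, 2.50, 2.28 and 1.94 in control, 1.96, 1.58, 1.48 and 1.60 at 4 weeks, and 1.35, 1.40, 1.16 and 1.34 at 40 weeks. All 4 of the 40-week values lay below all others, and the difference from control was -1.04 ± 0.17 (SE; limma adjusted p = 0.000462). Ndufb5, an accessory subunit of the membrane arm with its probe on chromosome 3 from 32650236 to 32650295, had 0.74, 0.45, 0.59 and 0.70 in control, 0.62, 0.59, 0.10 and 0.13 at 4 weeks, and -0.09, -0.14, -0.32 and -0.18 at 40 weeks. It fell by 0.80 ± 0.15 (SE; limma adjusted p = 0.00115) against control and by 0.54 ± 0.15 (SE; limma adjusted p = 0.0111) against 4 weeks. Of the 7 core subunits that carry the electron transfer of complex I, Ndufv1, which binds NADH, rose by 0.43 ± 0.11 (SE; limma adjusted p = 0.0101) and Ndufv2 fell by 0.41 ± 0.14 (SE; limma adjusted p = 0.034). Of the 29 accessory subunits 22 had a lower mean and 7 a higher mean; 8 were called lower (27.6%, against 24% of all genes) and none higher.

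Complex II, the succinate dehydrogenase that is shared with the citric acid cycle, had no call at either time. Sdha, its flavoprotein, had 0.01, 0.35, 0.22 and 0.83 in control, 0.38, 0.66, 0.68 and 0.50 at 4 weeks, and 0.21, 0.63, 0.61 and 0.37 at 40 weeks. The groups overlapped, with a difference of 0.10 ± 0.17 (SE) at 40 weeks. Sdhb, the iron-sulfur subunit, had a mean of -0.17 ± 0.44 in control, 0.04 ± 0.28 at 4 weeks and -0.26 ± 0.16 at 40 weeks (SD, n = 4). The membrane anchors Sdhc and Sdhd differed by -0.08 ± 0.20 and -0.25 ± 0.24 (SE) at 40 weeks, with limma adjusted p of 0.758 and 0.439. Sdhd stood apart on 4-week replicate 2, at 0.52 against -0.54 to -0.40 on the other 3.

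In complex III the Rieske iron-sulfur protein gene Uqcrfs1 had 0.95, 0.70, 0.70 and 0.66 in control, 0.60, 0.85, 0.29 and 0.57 at 4 weeks, and 0.24, 0.27, 0.25 and -0.01 at 40 weeks. It fell by 0.57 ± 0.14 (SE; limma adjusted p = 0.00601). Uqcrh had table means of 1.22 ± 0.20 in control, 0.61 ± 0.31 at 4 weeks and 0.72 ± 0.09 at 40 weeks (SD, n = 4), and fell by 0.49 ± 0.16 (SE; limma adjusted p = 0.026) at 40 weeks, a call that was lost without control replicate 1, 40-week replicate 1 or 40-week replicate 3, and without 40-week replicates 3 and 4 together. It was also lost with columns scaled to the same spread (-0.13; limma adjusted p = 0.539) and with quantile normalization (-0.21; limma adjusted p = 0.304). The core proteins Uqcrc1 and Uqcrc2 were not called.

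In complex V the largest difference was that of Atp5l, with its probe on chromosome 9 from 44728716 to 44728775. Its ratios were 0.73, 0.77, 1.03 and 1.26 in control, 0.49, 0.54, 0.42 and 0.53 at 4 weeks, and 0.01, 0.41, -0.21 and 0.21 at 40 weeks. Neither alcohol group overlapped with control, and the fall at 40 weeks was -0.84 ± 0.16 (SE; limma adjusted p = 0.00133). Atp5j2, subunit f, fell by 0.47 ± 0.13 (SE; limma adjusted p = 0.0117) on its brightest probe, whereas its other kept probe differed by 1.80 the opposite way. The genes Atp5g1, Atp5g2 and Atp5g3 encode the same mature c-ring protein, and at 40 weeks they differed by -0.20, 0.23 and -0.56, of which Atp5g3 was called (limma adjusted p = 0.0333). None of the 5 F1 subunit genes, which form the catalytic head, was called.

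The isoforms of complex IV held the most extreme ratios, some of them from dim probes. Cox6a2, Cox7a1 and Cox8b together summed to a background-subtracted Cy5 signal of 24860 on control replicate 4 and 30890 on 4-week replicate 2. On the other arrays with scanner files they summed to 1213 to 3971. Cox8b, the subunit VIII isoform of heart, muscle and brown fat in mice, was the highest member, with 3.63, 4.82, 5.01 and 4.92 in control, 4.46, 5.37, 3.00 and 5.17 at 4 weeks, and 2.31, 2.77, 3.95 and 3.75 at 40 weeks. The groups overlapped and the 40-week difference of -1.40 ± 0.53 (SE) was not called (limma adjusted p = 0.0515). The lowest control and the lowest 4-week value of Cox8b, on replicates 1 and 3, fell on the arrays with the lowest white adipocyte markers of those groups, at medians of 3.29 and 0.89 against 4.66 to 6.4 on the other 6. Their part in the level of Cox8b was not tested. Its common counterpart Cox8a had means of 0.12 ± 0.21, -0.03 ± 0.09 and 0.09 ± 0.06 in the 3 groups (SD, n = 4).

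Cox6b2, the subunit VIb isoform known from testis, had a high ratio in all groups, but from a dim signal. Together with Cox4i2 it summed to a background-subtracted Cy5 signal of 405 to 1248 on the arrays with scanner files. The median log2 Cy3 signal of these 2 genes was 7.59 to 7.91, against 15.28 to 15.49 for all members. The Cox6b2 probe lies on chromosome 7 from 4703488 to 4703547. Its values were 2.21, 2.74, 2.60 and 2.71 in control, 2.73, 2.31, 3.13 and 2.67 at 4 weeks, and 1.28, 1.25, 1.40 and 1.67 at 40 weeks. The 40-week samples lay apart from both other groups, with a fall of 1.16 ± 0.18 (SE; limma adjusted p = 0.000448) against control. Its common counterpart Cox6b1 differed by -0.30 ± 0.16 (SE; limma adjusted p = 0.166). Germ cell markers had median ratios of -0.12 to 0.61 over the 12 arrays. Cox6a2, the heart and skeletal muscle isoform of subunit VIa, with its probe on chromosome 7 from 135349160 to 135349219, was the lowest member, with -4.01, -4.39, -4.34 and -4.05 in control, -4.60, -3.86, -4.08 and -3.77 at 4 weeks, and -3.12, -3.19, -3.22 and -2.98 at 40 weeks. It rose by 1.07 ± 0.18 (SE; limma adjusted p = 0.000571). Cox6a1 fell by 0.61 ± 0.21 (SE; limma adjusted p = 0.0317). The Cox6a1 call was lost with columns scaled to the same spread, quantile normalization or replicate number added to the fit. Leaving out control replicate 2, 3 or 4, or 40-week replicate 1, 2 or 4, also lost it. So did leaving out 40-week replicates 3 and 4 together, or control replicates 3 and 4 with 4-week replicate 2. The sign of the Cox6a2 difference reversed, to -0.50 with the columns scaled to the same spread and to -0.19 with quantile normalization. Cox4i2, the lung isoform of subunit IV, had means of 0.50 ± 0.19, 0.59 ± 0.37 and 0.18 ± 0.07, and Cox4i1 had -0.46 ± 0.45, -0.77 ± 0.06 and -0.16 ± 0.11 (SD, n = 4). Neither was called against control. Cox4i1 was called higher at 40 than at 4 weeks, by 0.61 ± 0.19 (SE; limma adjusted p = 0.021). That Cox4i1 call was lost with columns scaled to the same spread and with quantile normalization. Leaving out 40-week replicate 4, alone or with replicate 3, also lost it.

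Among the remaining isoforms, Cox7a2 had 0.68, 0.60, 0.49 and 0.79 in control, 0.21, 0.50, 0.38 and 0.52 at 4 weeks, and 0.13, 0.16, 0.12 and 0.12 at 40 weeks. The 40-week samples lay below all others, and the gene fell by 0.51 ± 0.11 (SE; limma adjusted p = 0.00321) against control. Cox7a2l, a related protein known for joining complexes III and IV into supercomplexes, had means of -0.25 ± 0.12, -0.45 ± 0.17 and -0.03 ± 0.13 (SD, n = 4), and was called higher at 40 than at 4 weeks (limma adjusted p = 0.0168). That call was lost with columns scaled to the same spread, and without 40-week replicate 4, alone or with replicate 3. Cox7b, a small subunit, had 0.75 ± 0.17, 0.68 ± 0.18 and 0.45 ± 0.08 (SD, n = 4) and was not called.

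**Figure D4:**
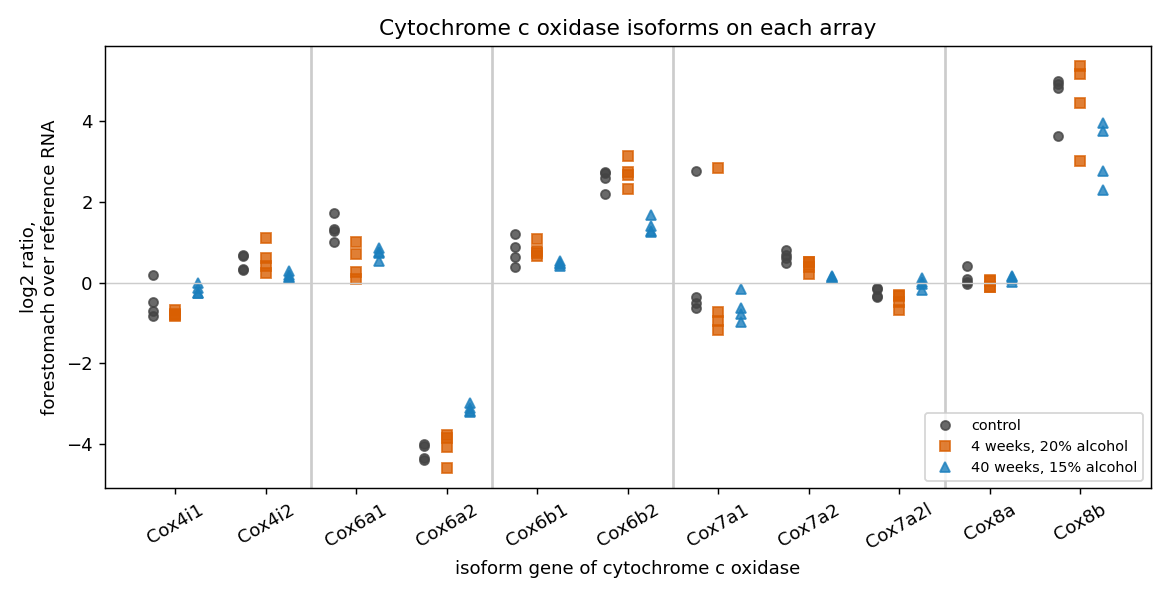
Log2 ratio of forestomach over reference RNA for isoform genes of cytochrome c oxidase on each of the 12 arrays, grouped by subunit between the vertical lines. Cox7a1 stood at 2.77 and 2.83 on 1 control and 1 4-week array and below 0 on the others, and the 40-week values of Cox6b2 and Cox6a2 lay closer to 0 than those of every control.

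Promoter sequences are shown for the isoforms that stood apart and for Atp5l, which kept its call under every alternative tried. They come from RefSeq (build GRCm38.p6), run 5′ to 3′ on the gene's strand from 250 bases before the annotated start to 30 after it, and have matches to the searched motifs in capitals. Cox7a1 (chr7:30183921-30184200, plus strand) and Cox6b2 (chr7:4753065-4753344, minus strand) are tissue isoforms, Cox6b1 (chr7:30626085-30626364, minus strand) is the common counterpart of Cox6b2, and Atp5l lies at chr9:44920713-44920992 on the minus strand.
Cox7a1: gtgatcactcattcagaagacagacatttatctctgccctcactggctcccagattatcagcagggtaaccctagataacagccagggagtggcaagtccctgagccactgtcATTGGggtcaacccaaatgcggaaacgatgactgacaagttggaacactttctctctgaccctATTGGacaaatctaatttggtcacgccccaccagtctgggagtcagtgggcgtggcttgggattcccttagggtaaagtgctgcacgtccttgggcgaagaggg
Cox6b2: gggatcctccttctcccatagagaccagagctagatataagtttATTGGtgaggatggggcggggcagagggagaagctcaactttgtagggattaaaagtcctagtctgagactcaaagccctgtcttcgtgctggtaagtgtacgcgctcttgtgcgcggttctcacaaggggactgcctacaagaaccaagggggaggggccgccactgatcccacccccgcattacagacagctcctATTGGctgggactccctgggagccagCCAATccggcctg
Cox6b1: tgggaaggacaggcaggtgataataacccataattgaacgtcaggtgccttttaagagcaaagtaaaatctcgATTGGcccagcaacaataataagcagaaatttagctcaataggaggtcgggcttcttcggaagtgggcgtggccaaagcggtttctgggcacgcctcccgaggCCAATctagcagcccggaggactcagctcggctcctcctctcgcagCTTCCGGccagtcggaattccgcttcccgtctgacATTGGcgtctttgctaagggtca
Atp5l: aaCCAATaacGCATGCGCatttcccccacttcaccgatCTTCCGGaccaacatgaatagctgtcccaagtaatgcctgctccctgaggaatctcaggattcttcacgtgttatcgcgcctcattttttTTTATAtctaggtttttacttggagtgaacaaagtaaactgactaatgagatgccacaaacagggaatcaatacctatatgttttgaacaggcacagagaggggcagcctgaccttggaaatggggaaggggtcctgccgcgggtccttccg

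The motifs were those of factors known for nuclear genes of mitochondria: NRF1 (GCATGCGC), the ETS family (CCGGAAG), ERR (TCAAGGTCA) and YY1 (AAGATGGCG), with CCAAT and TATAAA beside them, on either strand. In the stretches printed, CCAAT was the only kind matched for Cox7a1 and Cox6b2, with 2 and 3 matches. Cox6b1 had 1 ETS match besides 3 of CCAAT, and Atp5l had 1 each of NRF1, ETS, CCAAT and TATAAA. Not printed are Cox7a2, the common counterpart of Cox7a1, and Ndufb5, which also kept its 40-week call under every alternative. The corresponding stretches of both held 0 matches. Shares were counted over the full window, from 250 bases before to 50 after the start. Of 74 members with a promoter in the table, 14.9% held the NRF1 motif, against 3.94% of 17492 protein-coding genes. The ETS motif was held by 23% against 12.9%, YY1 by 10.8% against 2.14%, ERR by 2.70% against 0.377%, CCAAT by 45.9% against 42.3% and TATAAA by 9.46% against 14.8%. Motifs of NRF1, ETS or YY1 were in 8 of the 19 promoters of genes lower at 40 weeks (42.1%) and in 22 of 55 other members (40%). These are letter matches, and binding was not measured.

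Members with more than 1 kept probe gave a further reading. There were 35 other kept probes of 27 genes, and their 40-week difference had the sign of the brightest probe in 16 cases, and the 4-week scanner difference in 20. Other probes of Ndufa1 (-0.30), Uqcrh (-0.43) and Cox7a2 (-0.44) pointed the same way at 40 weeks as the probe tested. Those of Ndufb2 (0.99), Ndufv2 (1.09), Atp5j2 (1.80) and Atp5sl (1.46) pointed the opposite way. In control these opposing probes had mean ratios of -0.35, -0.47, -1.18 and -0.19, where the brightest probes had 0.85, 0.52, 0.69 and 0.93.

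The 40-week values have to be read beside the narrower spread of those columns. Sorted by their level on the 4-week arrays, which are in neither group of the 40-week comparison, genes with a ratio under -1 had a median difference of 0.71, those from -1 to 0 had 0.13, those from 0 to 1 had -0.22, and those over 1 had -0.78. The 61 members from 0 to 1 had a median of -0.24, and 17 of them (27.9%) were called lower, against 24% of the 6645 genes of that level. The 22 members from -1 to 0 had a median of -0.03 and none was called, where 33.7% of all genes of that level were called. The 3 members over 1 were Ndufa4, Cox6b2 and Cox8b. The markers of the tissue moved the same way: 15 of 16 squamous and 12 of 12 smooth muscle markers were called lower at 40 weeks, by medians of -1.96 and -1.75, and 8 of 10 endothelial markers by -1.63. Of all genes with a ratio over 1 on the 4-week arrays, 58.6% were called lower and 89.8% had a lower mean. The part of these markers in the members' values was not tested.

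**Figure D5:**
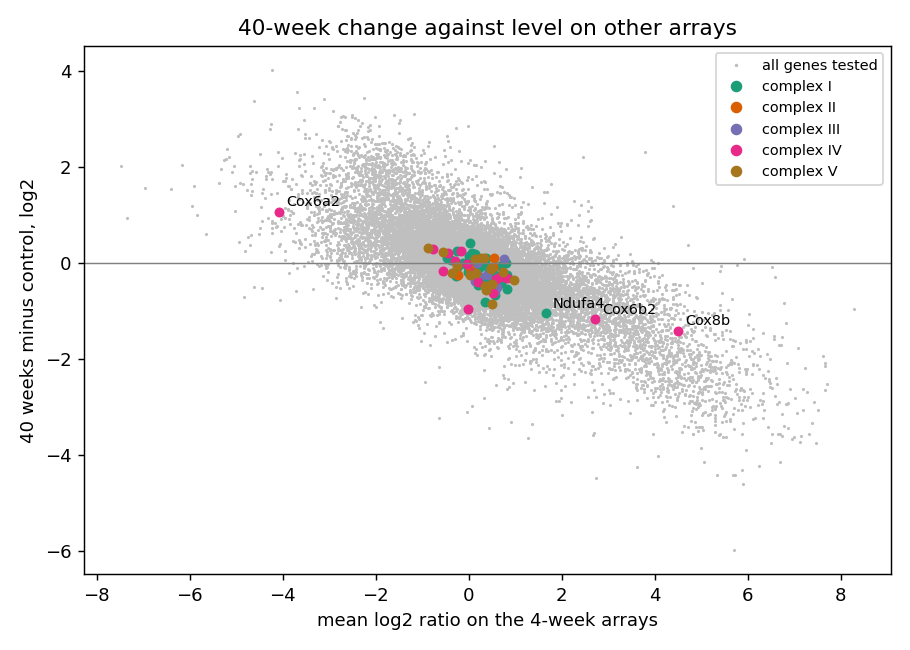
Difference between 40 weeks and control in log2 ratio (vertical) against the mean log2 ratio on the 4-week arrays (horizontal) for all 20689 genes (grey) and the members (coloured by complex). Differences ran from above 0 at low ratios to below 0 at high ratios, and Cox6a2, Ndufa4, Cox6b2 and Cox8b lay within the grey cloud.

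With the columns scaled to the same spread, 11 members were called lower and 2 higher, 9 of them among the 21, with a median of -0.06. Of all genes 19.8% were then called lower and 18.6% higher, with a median of -0.05. Ndufa4 and Cox6b2 then had differences of -0.34 and -0.41 with limma adjusted p of 0.149 and 0.101. Ndufb5 and Atp5l kept their calls under all 22 alternatives, with differences of -0.86 to -0.73 and -0.94 to -0.64. The higher count was 5 without control replicate 4, where 17.2% of all genes were called higher. The lower count was 8 without 40-week replicates 3 and 4, and 10 without control replicates 3 and 4 and 4-week replicate 2. Of all genes 14.6% and 20.5% were called lower under those alternatives.

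Against 4 weeks of 20% alcohol, 40 weeks of 15% alcohol gave 10 members called higher and 7 lower, where 18.3% of all genes were called higher and 23.2% lower. The median difference was -0.08 for members and for all genes. The higher members were Atp5e, Atp5s, Cox4i1, Cox5b, Cox6a2, Cox7a2l, Ndufa13, Ndufa2, Ndufb10 and Ndufv1; the lower included Atp5sl, Cox6b2, Ndufaf1, Ndufb4, Ndufb5 and Uqcrfs1. Cox6b2 differed most, by -1.31 ± 0.18 (SE; limma adjusted p = 0.000283). Atp5s, a factor linked to complex V by name, had -0.82, -0.72, -1.19 and -0.75 at 4 weeks and -0.16, -0.05, -0.11 and -0.28 at 40 weeks, and differed by 0.72 ± 0.13 (SE; limma adjusted p = 0.00132). With the mean of its kept probes the difference was 0.25 and the call was lost (limma adjusted p = 0.271). Ndufa2, an accessory subunit of complex I, differed by 0.44 ± 0.13 (SE; limma adjusted p = 0.0149). The Ndufa2 call was lost with columns scaled to the same spread, with quantile normalization and without 40-week replicates 3 and 4. Of the names that are not subunits, Cox4nb had means of -0.42 ± 0.33, -0.55 ± 0.10 and -0.58 ± 0.08 in the 3 groups and Atp5sl 0.93 ± 0.15, 0.97 ± 0.25 and 0.58 ± 0.07 (SD, n = 4). With the mean of its kept probes, Atp5sl turned from -0.39 to 0.66. The lower count was 2 without 40-week replicate 1, 3 without 4-week replicate 2 and 4 without 40-week replicate 3 or 4. The higher count was 4 without 40-week replicate 4 and 6 without 4-week replicate 3.

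Genes that work beside the nuclear subunits were read from lists chosen by function, and their counts at 40 weeks stand beside the 18.6% of all genes called higher and 24% called lower. Of mitochondrially encoded subunits the array had 4 under the listed names. At 40 weeks CYTB, cytochrome b of complex III, had 1.26, 1.05, 1.30 and 0.80 against 0.14, 0.46, -0.34 and 0.74 in control and was called higher (0.85 ± 0.23 SE; limma adjusted p = 0.0105). ATP6, a complex V subunit, had 0.91, 0.46, 0.73 and 0.02 against 0.04, 0.10, -0.48 and 0.13 and was also called higher (0.58 ± 0.20 SE; limma adjusted p = 0.031), with overlap. ND4 and COX2, subunits of complexes I and IV, differed by 0.62 and 0.27 and were not called (limma adjusted p of 0.055 and 0.318). The array annotation places the ATP6 and COX2 probes on chromosome 1, so a nuclear copy and the mitochondrial transcript cannot be told apart for them.

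Of 24 assembly factors tested outside the name rule, 9 were called lower and 1 higher at 40 weeks; the higher was Lrpprc, which stabilises mitochondrial messenger RNA (0.86 ± 0.11 SE; limma adjusted p = 0.000102). Of 19 regulators of mitochondrial biogenesis, 4 were called higher (Gabpb1, Polg, Polg2 and Pprc1) and 5 lower (Esrra, Esrrg, Ppargc1a, Sirt3 and Tfam). Ppargc1a, a coactivator of these genes, differed by -0.73 ± 0.23 (SE; limma adjusted p = 0.0241) and Esrrg, a nuclear receptor, by -1.29 ± 0.21 (SE; limma adjusted p = 0.000534). Gabpb1, a subunit of an ETS-family factor, was the single gene of these pathway lists called at 4 weeks on the scanner ratios: it had -0.65, -0.55, -0.65 and -0.56 in control and 0.23, 0.06, 0.33 and 0.07 at 4 weeks on the table, and the scanner difference was 0.66 (limma adjusted p = 0.0349). That call was lost without any 1 of 7 of the 8 arrays, and with the replicate block, median centring or arrays scaled to the same spread, where no gene at all was called higher. Of 14 genes of the citric acid cycle, 2 were called higher and 4 lower at 40 weeks, while the means were higher for 7 and lower for 7. Of 9 genes of pyruvate dehydrogenase and its regulators 1 was called higher and 5 lower. Of 10 carriers, porins and uncoupling proteins, 1 was called higher (Ucp1) and 2 lower, and of 7 mitochondrial antioxidants none was called higher and 3 were called lower. Cyc1, Cycs and Cyct, the cytochromes outside the name rule, were not called.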

How the data were processed

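Forestomach RNA from 12 samples in 3 groups of 4 was measured on 2-colour Agilent arrays. The authors' scanner files for 8 arrays hold intensity values per spot and a log10 ratio of Cy5 over Cy3, made with Agilent Feature Extraction 10.7.3.1 per the file headers; the submitters' processing notes name version 9.1. The deposited value table holds log2 ratios for all 12 arrays; its scaling is not given in the sources used here. All its columns were mapped to a sample.

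From the intensities, background was corrected with normexp (offset 50) and dyes were balanced by loess within each array. The brightest kept probe stood for a gene. Groups were compared with limma 3.58.1 in R 4.3.3, on the scanner ratios for control and 4 weeks and on the value table for all comparisons with 40 weeks, and p-values were adjusted by the Benjamini-Hochberg method over 20689 genes. The log10 ratio column as deposited entered only as an alternative. The members and gene lists were chosen with earlier results of these data known. Genes named with values were those called (the 2 with the smallest p per complex where over 12 were), those with the largest difference in each complex at 4 and at 40 weeks, the Sdh genes, the isoform families and the names that are not subunits. The other called genes at 40 weeks were named after their values were seen. Same-numbered samples had correlations of -0.44 to 0.41, over 0.1 in 5 of 12 pairs, so the numbers were not taken to pair them. Tested on simulated data, the 4-week test recovered 67 of 100 genes changed by 1 log2 unit (20625 genes) and the 40-week test 64 of 100 (20689 genes). The simulated noise was independent and alike in every group, so it left out the narrower 40-week columns and shifts of whole arrays. The largest member difference at 4 weeks, -0.68 for Cox6a1, was smaller than the simulated unit, so these rates do not cover such differences. The number of arrays limits the precision. Some results are not reported here.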

Additional observations from a re-analysis of the deposited data

Results flagged for a closer look

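In groups of 4, 1 sample stood apart from the other 3 in 15 of 114 sets of values tested, where chance gives about 1 in 20 independent sets. The sets shared arrays, and many of their genes were named for their values in these data. The share of 1 in 20 is therefore no measure for these flags. In 4-week replicate 2 these were Cox7a1 at 2.83 (others -1.18 to -0.74), Sdhd at 0.52 (-0.54 to -0.40), Atp5j2 at 0.44 (0.30 to 0.32), Ndufa2 at -0.37 (-0.51 to -0.50), and the medians of all members at 0.47 (0.19 to 0.22), of complex III at 0.67 (0.31 to 0.34) and of complex V at 0.47 (0.22 to 0.26). In control replicate 4 they were Cox7a1 at 2.77 (-0.63 to -0.36) and the complex IV median at 0.66 (0.09 to 0.12). In control replicate 1 they were Cox8b at 3.63 (4.82 to 5.01), Uqcrfs1 at 0.95 (0.66 to 0.70) and Uqcrh at 1.51 (1.08 to 1.15). At 40 weeks, Sdhd was -0.64 in replicate 2 (-0.42 to -0.39), and in replicate 4 Uqcrfs1 was -0.011 (0.24 to 0.27) and the complex III median 0.43 (0.25 to 0.26). Between the alcohol groups, limma called 17 members.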

How the results depend on the processing

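For the 4-week scanner comparison no alternative changed the count of 0 calls, and the members' median moved to -0.47 with median centring in place of loess and ranged from -0.16 to 0.02 as each array was left out (-0.16 to 0.0061 in Cy5 alone), above 0 in both without control replicate 4; in Cy5 alone median centring gave -0.29, and in Cy3 alone 1 higher call. Over the alternatives at 40 weeks against control, 9.8% to 19.2% of all genes were called higher and 14.6% to 25.5% lower. Between the alcohol groups these shares were 9.62% to 20.1% and 13% to 25.7%. At 40 weeks against control, 11 members were lower with columns scaled to the same spread, and 5 were higher with the mean of kept probes. Without 40-week replicates 3 and 4 there were 1 higher and 8 lower, without control replicates 3 and 4 and 4-week replicate 2 (the organ arrays, high in gastric or pancreatic markers) 4 higher and 10 lower, and without control replicate 4 and 4-week replicate 2, an alternative chosen after seeing the data, 6 higher. Between the alcohol groups the median turned to 0.054 with scaled columns, 0.037 with quantile normalization, and 0.011 both without the organ arrays and without control replicate 4 and 4-week replicate 2; without 40-week replicates 3 and 4 there were 2 higher and 2 lower. The 6 lower calls at 4 weeks on the table became 0 with scaled columns, quantile normalization, no filter, without 40-week replicates 3 and 4, or on the same 8 arrays. Leaving out each array gave 2 to 5 higher and 14 to 24 lower at 40 weeks, 4 to 12 higher and 2 to 10 lower with a median of -0.085 to 0.011 between the alcohol groups, 0 to 6 lower at 4 weeks on the table, and 1 to 5 higher and 0 to 1 lower in Cy3. Cox6a2 reversed to -0.50 with scaled columns and -0.19 with quantile normalization against control, and to -0.67 and -0.31 against 4 weeks; with the mean of kept probes Atp5j2 reversed to 0.66 at 40 weeks and Atp5sl to 0.66 between the alcohol groups. With the replicate block, the table gave 1 lower at 4 weeks, 2 higher and 17 lower at 40 weeks, and 7 higher and 6 lower between the alcohol groups. The cause was not tested for any of these. Recomputed counts were labelled by how much they changed, and medians by their shift against the spread between arrays. Single genes were labelled by sign and call. By these rules 1125 values stayed the same, 182 were weaker, 6 stronger, 6 reversed and 25 moved. Weaker covered counts that fell and genes that lost a call, and stronger only counts that rose. A median could change sign and still count as the same.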
